A study of Mus musculus with 8 samples.

Results

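The immunoglobulin gene segments were taken from a bulk RNA-sequencing count table of mouse CD4+ CD25+ regulatory T (Treg) cells, by their gene type: every row typed as an immunoglobulin V, D, J or C gene, with pseudogene types left out. This gave 251 segments of 42748 rows, namely 213 V, 19 D, 9 J and 10 C segments, of which 144 lie in the heavy chain locus Igh on chromosome 12, 103 in the kappa locus Igk on chromosome 6 and 4 in the lambda locus Igl on chromosome 16. The study compared Ripk1-deficient with Ripk1-proficient Treg cells that developed in the same animals. All libraries came from chimeric female Ripk1 fl/fl Foxp3 Cre/wt mice, in which a Cre-YFP fusion is expressed from one Foxp3 allele, so that random X inactivation leaves YFP+ cells (labelled Ripk1 -/-) next to YFP- cells (labelled Ripk1+/+). Cells of pooled spleen and lymph nodes were sorted for CD4, CD25 and YFP, and 4 YFP+ and 4 YFP- libraries carry the numbers 21, 46, 48 and 53. Expression of Cre-YFP and loss of Ripk1 coincide in these groups and cannot be told apart. The labels do not say whether the libraries are separate mice, so a p-value measures only how far these libraries differ among themselves, and ages are not stated.

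Immunoglobulins are the antigen receptors and antibodies of B lymphocytes. A heavy chain gene is assembled by joining a V, a D and a J segment, a light chain gene by joining a V and a J segment at the kappa or the lambda locus, and the joined exon is spliced to a constant (C) region. The constant gene used sets the isotype: Ighm encodes IgM, Ighd IgD, the Ighg genes the IgG subclasses, Igha IgA and Ighe IgE, while Igkc and Iglc2 encode constant regions of kappa and lambda light chains. Naive B cells carry IgM and IgD together, and antibody-secreting plasma cells contain very large amounts of immunoglobulin mRNA. Unrearranged heavy chain loci are also known to be transcribed in lymphocytes, from a start beside the D segment next to the J cluster and from the intron between the J segments and Ighm. Treg cells carry the T cell receptor and are not known to make immunoglobulin.

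The J segments are shown because their use differed between libraries. The 5 kappa J segments lie on the plus strand of chromosome 6, at chr6:70722562-70722599, chr6:70722916-70722958, chr6:70723223-70723260, chr6:70723548-70723585 and chr6:70723886-70723927 for Igkj1 to Igkj5 (GRCm38, GENCODE M21 annotation). Their coding parts are given 5′ to 3′, with matches to TTCGGNNNNGG, the J motif around the conserved phenylalanine, in capitals.
Igkj1: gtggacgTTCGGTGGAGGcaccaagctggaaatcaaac
Igkj2: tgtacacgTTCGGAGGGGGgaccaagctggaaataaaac
Igkj3: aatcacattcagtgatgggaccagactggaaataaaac
Igkj4: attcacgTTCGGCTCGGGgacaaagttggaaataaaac
Igkj5: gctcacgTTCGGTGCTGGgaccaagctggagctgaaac
Both strands were searched. The letters were found in 4 of 5 kappa J segments, with Igkj3 as the one without, in 11 of 66 T cell receptor J segments (16.7%) and in 0 of 67338 windows of 38 bases cut from V coding sequences. Igkj3 is regarded as non-functional in the mouse.

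The 4 heavy chain J segments lie on the minus strand of chromosome 12, at chr12:113429781-113429833, chr12:113429468-113429567, chr12:113429085-113429132 and chr12:113428514-113428567 for Ighj1 to Ighj4. Capitals mark TGGGGNNNNGG, the heavy chain form of the motif around the conserved tryptophan. Ighd4-1 (chr12:113430528-113430538, minus strand), the D segment next to the J cluster, and Ighd2-4 (chr12:113470694-113470710, minus strand) follow without capitals, since they carried most D counts in YFP- libraries and in the YFP+ library 53.
Ighj1: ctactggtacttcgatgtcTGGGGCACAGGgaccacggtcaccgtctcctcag
Ighj2: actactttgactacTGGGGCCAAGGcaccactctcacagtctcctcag
Ighj3: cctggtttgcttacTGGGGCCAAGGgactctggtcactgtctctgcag
Ighj4: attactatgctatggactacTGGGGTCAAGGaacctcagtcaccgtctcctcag
Ighd4-1: ctaactgggac
Ighd2-4: tctactatgattacgac
These letters were in 4 of 4 heavy chain J segments, in 0 of 5 kappa J segments, in 3 of 66 T cell receptor J segments (4.55%) and in 252 of 67338 V windows (0.374%).

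The V segments with the highest mean level of the heavy and kappa loci were Ighv1-54 (chr12:115193675-115194134, minus strand) and Igkv10-96 (chr6:68631963-68632442, minus strand), and Igkc (chr6:70726435-70726966, plus strand) was the one segment that passed the test between the groups. The last 300 coding bases of each are given. Capitals mark TANTNNTGN, the letters around the second conserved cysteine, in the V segments, and the last codon in Igkc.
Ighv1-54: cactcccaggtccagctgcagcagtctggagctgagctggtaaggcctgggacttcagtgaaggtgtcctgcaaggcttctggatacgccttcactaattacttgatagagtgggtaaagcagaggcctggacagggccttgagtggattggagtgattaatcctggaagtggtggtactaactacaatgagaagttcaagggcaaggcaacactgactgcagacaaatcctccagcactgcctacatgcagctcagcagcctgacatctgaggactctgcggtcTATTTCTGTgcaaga
Igkv10-96: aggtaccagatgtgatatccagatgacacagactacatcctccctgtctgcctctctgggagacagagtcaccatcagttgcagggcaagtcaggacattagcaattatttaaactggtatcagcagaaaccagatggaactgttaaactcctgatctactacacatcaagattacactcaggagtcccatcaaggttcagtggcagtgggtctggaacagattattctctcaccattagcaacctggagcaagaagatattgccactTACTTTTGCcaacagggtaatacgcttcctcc
Igkc: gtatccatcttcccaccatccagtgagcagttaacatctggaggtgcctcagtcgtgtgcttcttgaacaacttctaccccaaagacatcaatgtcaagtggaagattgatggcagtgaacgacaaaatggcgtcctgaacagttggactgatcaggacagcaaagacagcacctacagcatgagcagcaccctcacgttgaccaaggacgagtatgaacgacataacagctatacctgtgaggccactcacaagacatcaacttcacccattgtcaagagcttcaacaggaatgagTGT
The V letters were found in the last 40 coding bases of 205 of 213 V segments (96.2%), against 6.32% of 58392 windows of 40 bases taken further upstream.

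Iglv1 (chr16:19085017-19085500, minus strand) and Iglv2 (chr16:19260401-19260859, minus strand) are shown because they took turns as the leading lambda V segment. They differ at 11 of 351 aligned coding bases (96.9% identity), and capitals mark the 8 differences within the last 300 bases.
Iglv1: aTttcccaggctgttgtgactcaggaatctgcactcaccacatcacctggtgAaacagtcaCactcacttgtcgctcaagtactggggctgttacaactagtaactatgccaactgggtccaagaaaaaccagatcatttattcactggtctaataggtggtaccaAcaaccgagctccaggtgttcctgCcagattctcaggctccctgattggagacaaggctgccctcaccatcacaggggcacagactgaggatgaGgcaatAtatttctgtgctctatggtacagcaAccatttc
Iglv2: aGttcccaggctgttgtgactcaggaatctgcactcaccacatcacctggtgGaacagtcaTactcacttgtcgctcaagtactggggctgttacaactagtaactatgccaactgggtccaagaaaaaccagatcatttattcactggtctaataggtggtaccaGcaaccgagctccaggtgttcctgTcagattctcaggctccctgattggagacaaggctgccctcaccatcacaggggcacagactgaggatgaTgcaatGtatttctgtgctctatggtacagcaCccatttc
Of the 50-base windows of Iglv1 and Iglv2, 22.2% and 21.1% occur in another immunoglobulin gene. Reads from such windows could be assigned to either copy or dropped. The shares were 57.6% for Ighv1-53, 52.0% for Igkv4-61, 32.6% for Igkv10-96 and 9.76% for Ighv1-54, and 0% for Ighm, Igkc and Igkv6-32. Levels of single V segments are uncertain to this extent. Igkc and the 5 Igkj segments lie inside the annotated lincRNA Gm30211, and Iglv1 inside 2010309G21Rik. The sources used here do not say whether the counting used strand.

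Total counts were 29719251, 44322172, 55371610 and 44852338 in the YFP+ libraries 21, 46, 48 and 53, against 67843327, 70782679, 43737313 and 66867674 in the YFP- libraries. Library values below are CPM, counts scaled by the TMM-adjusted library total, and are always listed in this order of library numbers, 21, 46, 48 and 53. The YFP+ library 21 stood apart: 9571 genes had at least 10 counts there, against 13047 to 16558 in the 7 others, and over all genes tested its log2 values correlated at 0.682 to 0.731 with the others, which correlated at 0.912 to 0.985 among themselves. Ripk1, the deleted gene, had 15.2, 28.7, 19.9 and 26.0 CPM in YFP+ libraries, against 20.4, 44.2, 29.5 and 23.1 CPM in YFP- libraries (log2 fold change -0.38, SE 0.39, adjusted p = 0.713 from edgeR). The groups overlapped for Ripk1, so the gene count does not separate the labels. At the protein level, the study reported by immunoblot that YFP+ Treg cells lacked Ripk1. That blot used mice with the deletion in all Foxp3+ cells, not the chimeric mice sequenced here. Which part of Ripk1 the floxed allele removes was not examined, and reads from the remaining exons would still be counted.

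The immunoglobulin segments together held 0.146%, 0.159%, 0.687% and 0.112% of all counts in YFP+ libraries, against 0.160%, 0.148%, 0.207% and 0.184% in YFP- libraries. Summed over the 251 segments, this was 2052, 1567, 7308 and 1145 CPM in YFP+ libraries, against 1437, 1305, 1871 and 1699 CPM in YFP- libraries. The YFP+ library 48 was 3.56 times the highest and 4.66 times the median of the 7 other libraries, and the YFP+ libraries 21, 46 and 53 were above, within and below the YFP- range. The difference of the mean log2 sums was 0.54 with all libraries and -0.02 without the YFP+ library 48.

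One gene hid a contrast inside this sum. Ighm alone took most of it in YFP- libraries, and without Ighm the sum was 1718, 880, 5188 and 631 CPM in YFP+ libraries, against 130, 143, 242 and 198 CPM in YFP- libraries. All 4 YFP+ libraries were then above all 4 YFP- libraries, with a log2 difference of 3.10. The kappa locus measured 1219, 588, 2984 and 396 CPM in YFP+ libraries and 65.1, 55.3, 110 and 92.5 CPM in YFP- libraries. The lambda locus measured 413, 86.4, 1018 and 23.6 CPM in YFP+ libraries and 15.9, 27.1, 30.5 and 16.5 CPM in YFP- libraries, and its ranges overlapped through the YFP+ library 53. The heavy chain locus measured 421, 893, 3305 and 725 CPM in YFP+ libraries and 1356, 1222, 1730 and 1590 CPM in YFP- libraries, so that the YFP+ library 48 was above and the other 3 YFP+ libraries below every YFP- library. The T cell receptor segments, 209 rows counted in the same way, differed by 0.18 on the log2 scale: 7059, 7358, 6499 and 9195 CPM in YFP+ libraries against 6951, 5552, 6485 and 7429 CPM in YFP- libraries. Here the YFP+ library 48 was at 0.707 times the highest other library. In bulk RNA, fewer cells of a type and less RNA per cell cannot be told apart.

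Across all genes, edgeR's quasi-likelihood test with Benjamini-Hochberg adjustment tested 15063 genes, among them 111 segments (94 V, 1 D, 8 J and 8 C). Of the 111, 1 was higher in YFP+ libraries, Igkc, where 0.0332% of all genes tested were called higher. None was lower, where 0.836% of all genes were (edgeR, 1 segment at an unadjusted p under 0.05). At an unadjusted p under 0.05, 58 of 111 segments were higher, 46 of them in the kappa locus, beside 7.21% of all genes. The log2 fold change was positive for 104 of 111 segments, beside 49.1% of all genes, with a median of 3.37 beside -0.02 for all genes tested. A segment could pass the filter on low counts through the YFP+ libraries alone, which favours positive values among the 111. With no filter, 213 of 236 segments were positive, with a median of 3.18 beside -0.03 for all genes. Every YFP+ library was above every YFP- library for 23 of the 111 segments, all of them kappa segments, beside 7.83% of all genes, and below for 2 (Ighd4-1 and Ighg3), beside 10.6%. The fit did not pair libraries by number. With the number as a block, edgeR called 0 of 15063 genes (39 segments at an unadjusted p under 0.05). The count of called segments also depended on which YFP+ libraries entered. Without the YFP+ library 21, 22 segments were higher (14 kappa and 8 heavy chain) and 0 lower, beside 2.68% and 3.97% of all genes. The 5 with the largest changes among the 22 were Ighv2-3, Ighv1-53, Igkv6-17, Igkv17-121 and Ighv1-72, at 6.35, 5.27, 5.10, 4.92 and 4.87 on the log2 scale. In this setting 133 segments passed the filter. Ighv2-3 did so through YFP+ libraries alone, with a single count in YFP- libraries (0.0206 CPM in library 48), so the size of its change is uncertain. The 4 others are uncertain through shared sequence. Of the 50-base windows of Ighv1-72, 92.5% occur in another immunoglobulin gene, and 57.6% of those of Ighv1-53. For Igkv6-17 and Igkv17-121 the shares were 37.5% and 31.4%. Without the YFP+ library 48, 2 were higher (Igkc and Igkj2) and 0 lower (5 heavy chain segments at an unadjusted p under 0.05), beside 0.0456% and 1.49% of all genes. Without both, a choice made after the data were seen, 10 were higher and 2 lower (Ighd4-1 and Ighm), beside 1.43% and 4.28%. DESeq2 called 60 segments higher (49 kappa, 9 heavy chain and 2 lambda) and 1 lower (Ighd4-1), beside 2.14% and 3.15% of all genes. Without any 1 of the YFP+ libraries 46 and 53 or of the 4 YFP- libraries, edgeR called 0% of all 15261 to 15916 genes tested, and so 0 segments, with 43 to 67 segments at an unadjusted p under 0.05.

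The gene Ighm made up most heavy chain constant counts. Ighm (chr12:113418558-113422730, minus strand) had 334, 687, 2120 and 514 CPM in YFP+ libraries, against 1307, 1162, 1629 and 1501 CPM in YFP- libraries. The YFP+ library 48 was the highest of all 8 and the other 3 YFP+ libraries were the lowest of all, whereas the YFP- libraries lay within a narrow range. With all libraries the log2 fold change was -0.62 (SE 0.53, adjusted p = 0.658 from edgeR, two-sided exact permutation p = 0.143). With library 48 of the YFP+ group left out it was -1.45 (edgeR, adjusted p = 0.0593), and with both 21 and 48 left out it was -1.23 (edgeR, adjusted p = 0.0263).

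Ighd (chr12:113406604-113416324, minus strand) encodes the IgD chain that naive B cells make by alternative splicing of the same transcript as Ighm. It went the other way from Ighm in the YFP+ libraries 21 and 46, while in 48 both genes were above every YFP- library. Ighd had 84.7, 119, 471 and 25.3 CPM in YFP+ libraries, against 28.9, 19.7, 32.4 and 36.3 CPM in YFP- libraries (log2 fold change 2.58, SE 0.80, adjusted p = 0.262 from edgeR, exact permutation p = 0.114). The YFP+ libraries 21, 46 and 48 were above and the YFP+ library 53 was within the YFP- range. As a share of Ighm plus Ighd counts, Ighd made up 20.2%, 14.8%, 18.2% and 4.70% in YFP+ libraries, against 2.17%, 1.67%, 1.95% and 2.36% in YFP- libraries, so the groups did not overlap.

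The switched isotypes were low and uneven. Igha (chr12:113254830-113260236, minus strand) had 0.426, 5.67, 252 and 68.0 CPM in YFP+ libraries, against 1.24, 4.11, 14.2 and 7.05 CPM in YFP- libraries (log2 fold change 3.62, SE 1.63, adjusted p = 0.407 from edgeR, exact permutation p = 0.400). It took 8.73% (95% Clopper-Pearson interval 8.58% to 8.87%) and 10.5% (10.1% to 10.9%) of heavy chain constant counts in the YFP+ libraries 48 and 53, and at most 0.840% in the 6 other libraries. Ighg2c (chr12:113285325-113288932, minus strand) had 0, 0, 34.4 and 40.1 CPM in YFP+ libraries, against 0.516, 0.212, 11.1 and 3.08 CPM in YFP- libraries (log2 fold change 2.32, SE 2.22, adjusted p = 0.691 from edgeR, exact permutation p = 0.657). The same YFP+ libraries 48 and 53 were high for both, and the same YFP- libraries 48 and 53 led their group. A count of 3, the floor used here, is 0.142, 0.0667, 0.0577 and 0.0687 CPM in YFP+ libraries and 0.0374 to 0.0619 CPM in YFP- libraries. These intervals and floors cover counting error only, since no molecular identifiers are described.

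Ighg3 (chr12:113356224-113361232, minus strand), the IgG3 gene, had 0, 0.556, 2.65 and 0 CPM in YFP+ libraries, against 2.72, 8.18, 4.05 and 2.69 CPM in YFP- libraries. The groups did not overlap, with all YFP+ values lower, by a small margin between the highest YFP+ and the lowest YFP- value (log2 fold change -2.44, SE 1.60, adjusted p = 0.543 from edgeR, exact permutation p = 0.0286, the smallest that 70 splits of these libraries allow). Ighg2b (chr12:113302965-113307933, minus strand) had 0, 0, 3.54 and 0.206 CPM in YFP+ libraries and 0, 2.91, 0.0826 and 0.925 CPM in YFP- libraries, and its log2 fold change of -0.05 changed sign with single libraries. Ighg1 (chr12:113325240-113330523, minus strand) was counted in 1 library of each group, at 2.36 CPM in the YFP+ library 48 and 7.36 CPM in the YFP- library 53, and was too low to test. Ighe (chr12:113269260-113273248, minus strand) had 0 counts in all 8 libraries, against 8848 to 150178 heavy chain constant counts, which allows a share of up to 0.0417% in the YFP+ library 21 and less in the others (exact upper limit).

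Igkc was higher in YFP+ libraries, and Iglc2 did not pass the test. Igkc, the kappa constant region, had 654, 315, 1587 and 203 CPM in YFP+ libraries, against 36.1, 31.0, 57.6 and 49.0 CPM in YFP- libraries. The groups did not overlap, and the lowest YFP+ library, 53, was still above the highest YFP- library. The means were 690 ± 628 CPM and 43.4 ± 12.1 CPM (SD, n = 4 each), a ratio of 15.9, and the log2 fold change was 3.99 (SE 0.68, adjusted p = 0.0441 from edgeR). The exact permutation test gave p = 0.0286. Neither test paired libraries by number. With the number as a block the log2 fold change of Igkc was 3.61 (edgeR, adjusted p = 0.347). Igkc stayed higher in YFP+ libraries whichever library was left out, but the size and the call depended on single libraries. Its log2 fold change was 3.17 when the YFP+ library 48 was left out (edgeR, adjusted p = 0.0435) and 2.57 when 21 and 48 were both left out (edgeR, adjusted p = 0.0167). Leaving out the YFP+ library 21 gave an adjusted p of 0.0276 from edgeR, against 0.0733 without 46 and 0.0668 without 53. Leaving out the YFP- library 21, 46, 48 or 53 gave an adjusted p of 0.148, 0.169, 0.120 or 0.131 from edgeR, with log2 fold changes of 3.85 to 4.14. Iglc2 (chr16:19198396-19200351, minus strand), the one lambda constant segment among the members, had 140, 45.2, 269 and 16.9 CPM in YFP+ libraries, against 7.61, 16.3, 17.0 and 4.80 CPM in YFP- libraries (log2 fold change 3.37, SE 0.89, adjusted p = 0.178 from edgeR, exact permutation p = 0.0571). The YFP+ library 53 lay just below the highest YFP- library for Iglc2.

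Per kilobase of exon, Ighm was at 177, 364, 1124 and 273 CPM and Igkc at 1230, 592, 2982 and 382 CPM in YFP+ libraries, against 693, 616, 864 and 796 CPM for Ighm and 67.8, 58.3, 108 and 92.1 CPM for Igkc in YFP- libraries. The order of the heavy and the kappa constant gene was thus opposite in the groups: Igkc was above Ighm in 4 of 4 YFP+ libraries and below it in 4 of 4 YFP- libraries. In counts, there were 0.510, 2.18, 1.34 and 2.53 Ighm counts for each Igkc count in YFP+ libraries, against 36.2, 37.5, 28.3 and 30.6 in YFP- libraries.

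**Figure D1:**
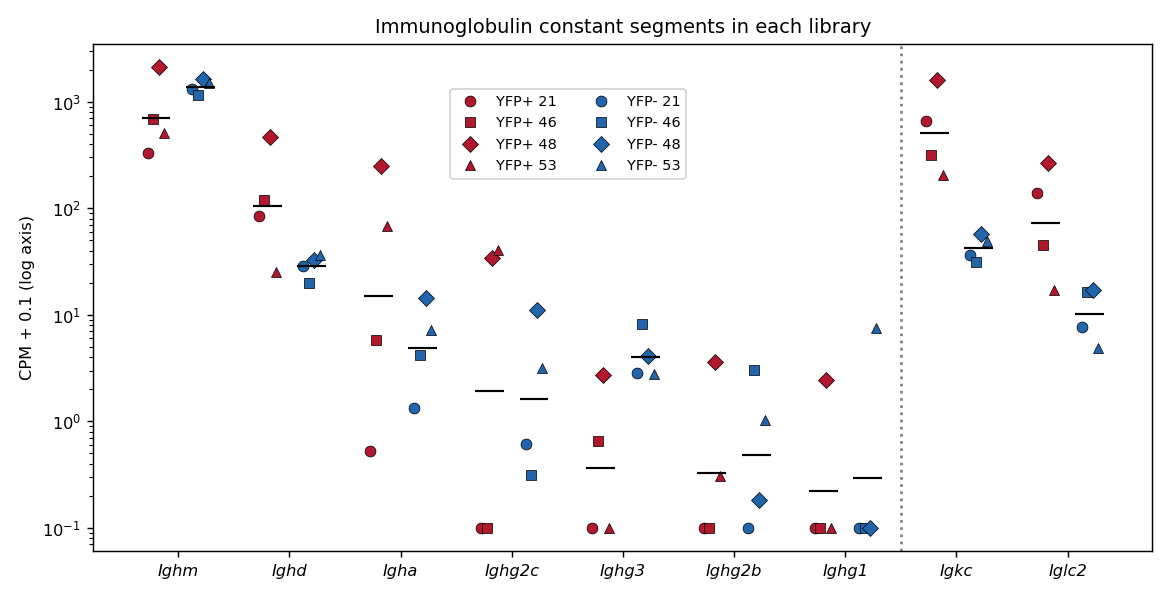
Levels of 9 constant segments, those with at least 1 count, in each of the 8 libraries (CPM + 0.1, log axis). Points are libraries, with YFP+ left of YFP-, bars are geometric means of the group, and the dotted line parts heavy from light chain genes. Igkc is the segment whose groups are separated upwards (203 to 1587 CPM for YFP+, against 31.0 to 57.6 CPM for YFP-), while the YFP- libraries are close together for Ighm.

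Iglc2 took 17.7%, 12.5%, 14.5% and 7.69% of the counts of Igkc and Iglc2 in YFP+ libraries, against 17.4%, 34.4%, 22.8% and 8.93% in YFP- libraries. The ranges overlapped. Among light chain V counts, lambda segments made up 34.2%, 14.0%, 36.5% and 3.54% in YFP+ libraries, against 24.0%, 33.5%, 21.5% and 22.4% in YFP- libraries. Iglc2 was the only lambda constant segment among the members, so the constant share leaves out any other lambda constant gene. With this limit, both shares were lowest in the YFP+ library 53.

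The kappa J segments followed Igkc. Igkj1 had 13.6, 5.43, 33.7 and 6.66 CPM in YFP+ libraries, against 0.635, 0.860, 1.30 and 1.68 CPM in YFP- libraries (log2 fold change 3.73, SE 0.78, adjusted p = 0.0916 from edgeR). Igkj2 had 12.6, 5.40, 27.2 and 3.89 CPM in YFP+ libraries, against 0.728, 0.586, 0.454 and 0.662 CPM in YFP- libraries (log2 fold change 4.33, SE 0.78, adjusted p = 0.0517 from edgeR). Neither pair of groups overlapped, and Igkj2 passed the test without the YFP+ library 21 (edgeR, adjusted p = 0.0259) or the YFP+ library 48 (adjusted p = 0.0472). The other kappa J segments are named after their values were seen. Igkj4 and Igkj5 had 0.435 to 20.03 CPM and 0.710 to 15.5 CPM in YFP+ libraries, against 0.138 to 0.599 CPM and 0.386 to 0.950 CPM in YFP- libraries. Igkj3, the segment without the J motif, had 0, 0, 8 and 0 counts in YFP+ libraries and 5, 12, 0 and 3 counts in YFP- libraries. These few counts came from 1 YFP+ and 3 YFP- libraries. Igkj1 made up 33.9%, 28.8%, 34.9% and 56.9% of kappa J counts in YFP+ libraries, against 23.3%, 31.4%, 39.4% and 57.8% in YFP- libraries, with the highest share in both libraries of number 53.

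The heavy chain J segments were used differently in the groups. Ighj1 made up 0%, 23.1%, 29.7% and 3.95% of Ighj counts in YFP+ libraries, against 75.0%, 66.2%, 75.4% and 74.0% in YFP- libraries. The groups did not overlap, and the YFP- libraries were close to each other. These shares rest on 21, 329, 1826 and 253 Ighj counts in YFP+ libraries and on 588 to 791 in YFP- libraries, and the 21 counts of the YFP+ library 21 were all of Ighj2. In levels, Ighj1 had 0, 1.69, 10.4 and 0.229 CPM in YFP+ libraries, against 5.83, 6.18, 10.6 and 8.07 CPM in YFP- libraries (log2 fold change -1.31, SE 1.45, adjusted p = 0.737 from edgeR). Ighj2 had 0.994, 3.002, 8.57 and 2.68 CPM in YFP+ libraries, against 0.767, 1.66, 1.73 and 0.911 CPM in YFP- libraries (log2 fold change 1.59, SE 0.74, adjusted p = 0.419 from edgeR). Ighj3 and Ighj4, named after their values were seen, had log2 fold changes of 2.11 and 1.5 with standard errors of 1.40 and 1.25. Ighj1 was thus the one heavy chain J segment with a negative fold change, and its groups overlapped through the YFP+ library 48.

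Ighd4-1 was the only D segment with enough counts to be tested. It had 0.473, 0.0445, 0.423 and 0.0229 CPM in YFP+ libraries (10, 2, 22 and 1 counts), against 0.926, 1.21, 1.86 and 1.64 CPM in YFP- libraries (70, 97, 90 and 119 counts). All YFP+ values were lower than all YFP- values, including the YFP+ library 48, which was the highest library for most other segments (log2 fold change -2.56, SE 0.94, adjusted p = 0.332 from edgeR). It was called lower without the YFP+ libraries 21 and 48 (-5.31, adjusted p = 0.0221 from edgeR) and by DESeq2 (-2.63, adjusted p = 0.0414). Ighd4-1 is 11 bases long, so a read counted for it comes almost wholly from flanking sequence. Ighd2-4, named after its values were seen, had 0, 4, 0 and 168 counts in YFP+ libraries and 0, 0, 1 and 24 counts in YFP- libraries, and thus came almost wholly from number 53 in both groups. Of the 19 D segments, 5 had 0 counts in all libraries.

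Heavy chain V segments were counted mostly in 3 YFP+ libraries. The 113 Ighv segments summed to 0.0947, 73.0, 382 and 67.2 CPM in YFP+ libraries, against 6.46, 14.1, 23.4 and 18.3 CPM in YFP- libraries. The YFP+ libraries 46, 48 and 53 were above every YFP- library, and the YFP+ library 21 had 2 Ighv counts in all, both of Ighv1-36, beside 7050 Ighm counts. For each 1000 Ighm counts there were 0.284, 106, 180 and 131 Ighv counts in YFP+ libraries, against 4.94, 12.1, 14.4 and 12.2 in YFP- libraries. At the kappa locus the same ratio hardly varied, with 801, 806, 820 and 892 Igkv counts for each 1000 Igkc counts in YFP+ libraries against 728, 693, 860 and 828 in YFP- libraries.

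**Figure D2:**
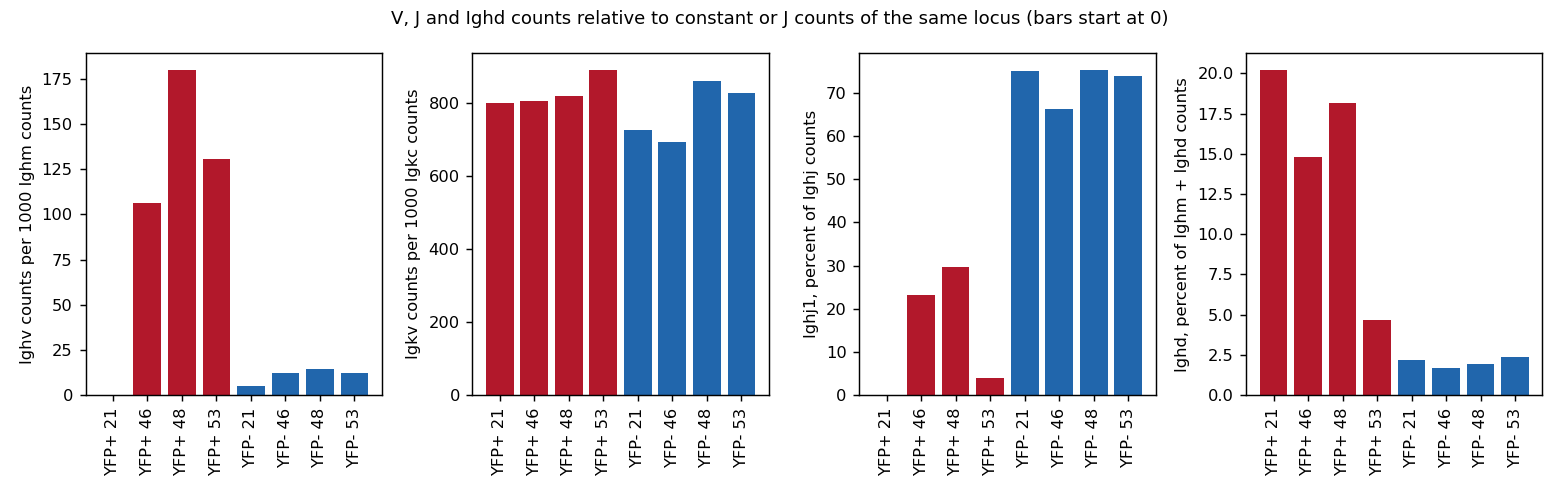
Counts of one kind of segment relative to another within each library, as bars from 0, with YFP+ libraries left of YFP- libraries. From left to right: Ighv counts per 1000 Ighm counts, Igkv counts per 1000 Igkc counts, Ighj1 as a percent of Ighj counts, and Ighd as a percent of Ighm plus Ighd counts. The kappa ratio is alike in all libraries (693 to 892), whereas Ighj1 makes up 0% to 29.7% in YFP+ and 66.2% to 75.4% in YFP- libraries.

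Of the 6 Ighv segments with the highest mean level, Ighv1-54 and Ighv6-6 were counted almost wholly in 1 library. Ighv1-54 had 0, 0.689, 61.8 and 0 CPM in YFP+ libraries, against 0.106, 0.162, 0.0206 and 0 CPM in YFP- libraries. Ighv6-6 had 0, 0, 36.0 and 0 CPM in YFP+ libraries, against 0.0926, 0.648, 0.165 and 0.290 CPM in YFP- libraries. Ighv5-4 had 0, 4.003, 14.5 and 1.37 CPM in YFP+ libraries, against 0.146, 0.274, 0.516 and 0.304 CPM in YFP- libraries (log2 fold change 4.0, SE 1.54, adjusted p = 0.349 from edgeR). Ighv1-54, Ighv6-6 and Ighv5-4 were highest in the YFP+ library 48, at 89.6, 55.6 and 3.63 times the next library, and the first 2 did not pass the filter on low counts, so they were not tested. Ighv9-3 was high in both libraries of number 48, with 0, 3.74, 10.3 and 0.618 CPM in YFP+ libraries, against 0.198, 0.436, 4.95 and 1.02 CPM in YFP- libraries (log2 fold change 1.15, SE 1.59, adjusted p = 0.801 from edgeR). Ighv1-53 had 0, 2.54, 8.24 and 27.2 CPM in YFP+ libraries, against 0.225, 0.125, 0.145 and 0.800 CPM in YFP- libraries (log2 fold change 4.86, SE 1.74, adjusted p = 0.321 from edgeR). Ighv3-6 had 0, 1.11, 3.71 and 15.5 CPM in YFP+ libraries, against 0.225, 0.249, 0.124 and 1.42 CPM in YFP- libraries (log2 fold change 3.33, SE 1.66, adjusted p = 0.444 from edgeR). Ighv1-53 and Ighv3-6 were highest in number 53 in both groups, and Ighv1-53 passed the test without the YFP+ library 21 (5.27, adjusted p = 0.0364 from edgeR).

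Kappa V counts were spread over the locus. The 97 Igkv segments summed to 524, 254, 1301 and 181 CPM in YFP+ libraries, against 26.3, 21.5, 49.5 and 40.6 CPM in YFP- libraries, with no overlap. At least 1 CPM was reached by 38, 53, 80 and 24 of the 97 in YFP+ libraries, against 5, 3, 9 and 10 in YFP- libraries. For the 113 Ighv segments the numbers were 0, 25, 60 and 11 in YFP+ libraries, against 0, 3, 4 and 3 in YFP- libraries.

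Among the 6 leading Igkv segments, 3 shared a pattern: high in the YFP+ libraries 48 and 21, low in 46 and at or near 0 in 53. Igkv10-96 had 42.3, 6.65, 116 and 0.595 CPM in YFP+ libraries, against 0.370, 0.623, 0.578 and 1.504 CPM in YFP- libraries (log2 fold change 5.74, SE 1.5, adjusted p = 0.175 from edgeR). Igkv8-30 had 31.6, 1.40, 125 and 0 CPM in YFP+ libraries, against 0.635, 0.299, 2.29 and 0.248 CPM in YFP- libraries (log2 fold change 5.51, SE 2.17, adjusted p = 0.357 from edgeR). Igkv8-21 had 36.4, 3.49, 108 and 0 CPM in YFP+ libraries, against 0.926, 0.249, 0.0619 and 0.317 CPM in YFP- libraries (log2 fold change 6.56, SE 2.17, adjusted p = 0.287 from edgeR). None of the 3 separated the groups: the YFP+ library 53, and for Igkv8-30 also 46, lay within or below the YFP- range. Igkv6-15 was more even among the YFP+ libraries 21, 46 and 48 only, with 34.7, 14.5, 43.5 and 0.572 CPM in YFP+ libraries, against 1.22, 0.773, 1.90 and 1.59 CPM in YFP- libraries. Its value in the YFP+ library 53 was below every YFP- library. Igkv6-32 had 5.59, 1.36, 77.9 and 1.51 CPM in YFP+ libraries, against 0.675, 0.424, 0.826 and 0.345 CPM in YFP- libraries (log2 fold change 5.25, SE 1.51, adjusted p = 0.212 from edgeR), and its groups did not overlap. Igkv4-61 was the leading segment of number 53, with 11.7, 0.689, 6.09 and 70.2 CPM in YFP+ libraries, against 0.317, 0.125, 0.310 and 5.52 CPM in YFP- libraries (log2 fold change 3.82, SE 1.71, adjusted p = 0.407 from edgeR).

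The lambda V segments varied widely between YFP+ libraries. Iglv1 had 207, 27.9, 605 and 2.54 CPM in YFP+ libraries, against 4.50, 2.17, 3.30 and 9.56 CPM in YFP- libraries (log2 fold change 5.43, SE 1.51, adjusted p = 0.198 from edgeR). Iglv2 had 56.0, 6.23, 118 and 4.12 CPM in YFP+ libraries, against 3.19, 8.05, 9.27 and 1.39 CPM in YFP- libraries (log2 fold change 3.08, SE 1.17, adjusted p = 0.349 from edgeR). Iglv3 had 9.04, 7.09, 26.7 and 0 CPM in YFP+ libraries, against 0.622, 0.611, 0.950 and 0.773 CPM in YFP- libraries (log2 fold change 3.85, SE 1.56, adjusted p = 0.367 from edgeR). The groups overlapped for all 3. Iglv1 led the lambda V counts in the YFP+ libraries 21, 46 and 48 (76.1%, 67.7% and 80.7%) and in the YFP- libraries 21 and 53 (54.1% and 81.5%), and Iglv2 led in the YFP+ library 53 (61.9%) and in the YFP- libraries 46 and 48 (74.3% and 68.5%). With 96.9% identity between them, this split is uncertain.

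**Figure D3:**
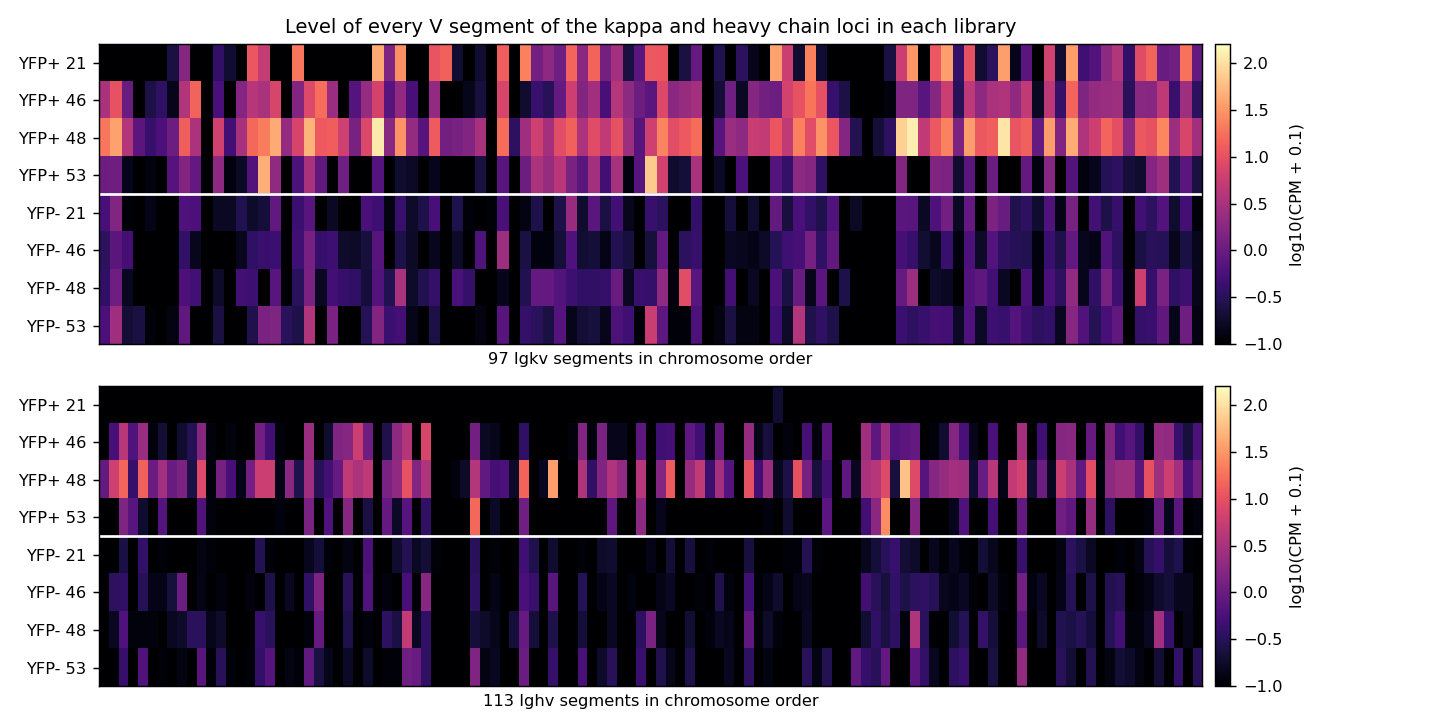
Level of each of the 97 Igkv (upper panel) and 113 Ighv segments (lower panel), in chromosome order, in each library, as log10(CPM + 0.1). Rows are libraries, with YFP+ above the white line and YFP- below it. The YFP+ library 48 has at least 1 CPM in 80 Igkv and 60 Ighv segments, and the YFP+ library 21 in 38 Igkv and 0 Ighv segments.

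Few or many V segments could hold the counts of a library. The effective number of V segments (the inverse Simpson index, which equals the number of segments if all had equal counts) was 21.9, 31.8, 25.7 and 4.57 for Igkv in YFP+ libraries, against 33.4, 29.5, 15.7 and 20.03 in YFP- libraries. For Ighv it was 27.3, 20.6 and 4.46 in the YFP+ libraries 46, 48 and 53, against 30.2, 21.7, 11.1 and 23.7 in YFP- libraries. The YFP+ library 53 was the most concentrated at both loci. There, Igkv4-61 and Igkv9-120 held 38.7% and 25.4% of kappa V counts, and Ighv1-53 and Ighv3-6 held 40.6% and 23.2% of heavy chain V counts. Igkv9-120, named after its values were seen, had 5.21, 3.07, 21.3 and 46.0 CPM in YFP+ libraries, against 0.119, 0.324, 0 and 1.24 CPM in YFP- libraries. In the YFP+ library 48, which had far more V counts, the leading segments were Igkv8-30 with 9.60% and Ighv1-54 with 16.2%, followed by Igkv10-96 with 8.91% and Ighv6-6 with 9.43%. By V family, the Igkv4 and Igkv9 families held 55.1% and 26.7% of kappa V counts in the YFP+ library 53. The 10 segments of the Igkv1 family held 0% in the YFP+ library 21, against 3.38% to 19.4% in the 7 other libraries.

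**Figure D4:**
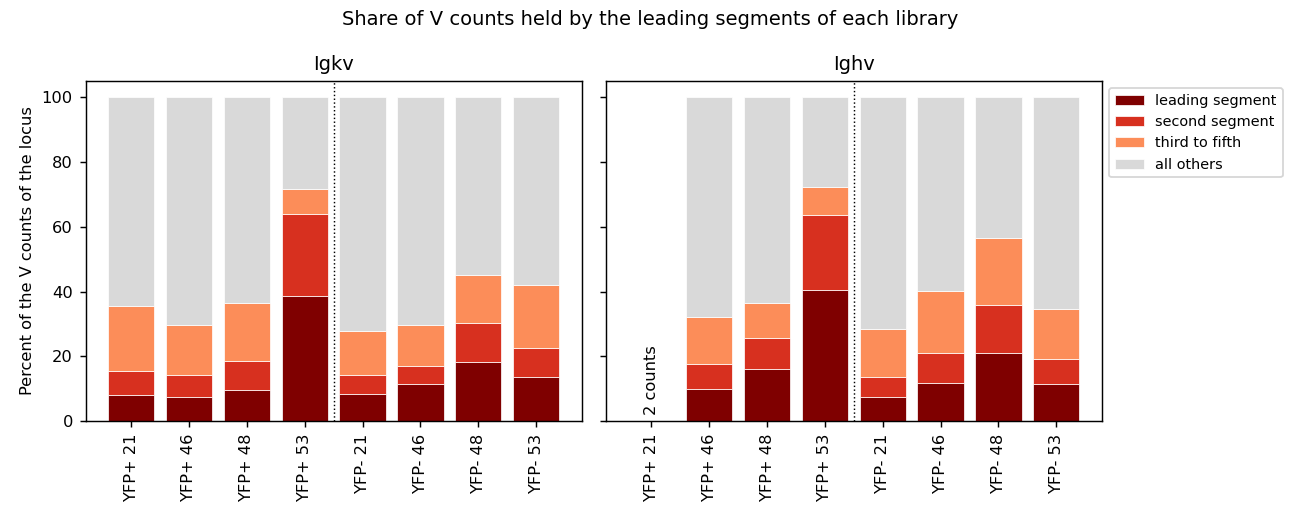
Share of the V counts of a locus held by the leading, the second, the third to the fifth and all other V segments in each library (stacked percent, Igkv and Ighv), with YFP+ libraries left of YFP- libraries. The YFP+ library 21 is not drawn for Ighv, since it had 2 counts. In the YFP+ library 53 the leading segments hold 38.7% of Igkv and 40.6% of Ighv counts, more than in any other library drawn.

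YFP+ and YFP- libraries of one number shared some of their V segments. Over the 188 V segments with at least 10 counts, deviations of log2(CPM + 1) from the group mean correlated at 0.241, 0.169, 0.122 and 0.235 between YFP+ and YFP- libraries of the same number, against -0.205 to 0.0295 for the 12 pairings of different numbers. This is a description over segments that share libraries and locus. Within a group these deviations cancel out, so a positive correlation with the same number forces lower ones with other numbers. Single segments shared a number only in part. Some V segments had at least 5 CPM and at least 5 times every other YFP+ library in a single YFP+ library. Of these, 1 of 2 for 21, 10 of 27 for 48 and 1 of 1 for 53 had their highest YFP- value in the same number. None met this bar in 46. Ighv1-54 and Ighv6-6, the leading Ighv segments of the YFP+ library 48, were highest in number 46 among YFP- libraries. Igkv4-61, Ighv1-53 and Ighv3-6 were highest in number 53 in both groups. Igkv4-57-1, named after its values were seen, was highest in number 48 in both groups, with 0.142, 2.25, 11.9 and 0.114 CPM in YFP+ libraries against 0, 0.237, 9.02 and 0.0138 CPM in YFP- libraries.

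The YFP+ library 48 was the highest library for most segments. Among the 215 segments with at least 10 counts in all, 174 (80.9%) had their highest CPM there, namely 82 of 98 kappa, 88 of 113 heavy chain and 4 of 4 lambda segments. Of all genes with at least 10 counts, 14.8% were highest in this library, and of T cell receptor segments 4.88%. Of the V segments with at least 10 counts, it was above every YFP- library for 92 of 92 Igkv, 84 of 93 Ighv and 3 of 3 Iglv segments. The same counts were 70, 54 and 2 in the YFP+ library 46, 37, 24 and 0 in the YFP+ library 53, and 51, 1 and 3 in the YFP+ library 21. At least 1 count was found for 79, 180, 227 and 130 of the 251 segments in YFP+ libraries, against 158, 171, 167 and 165 in YFP- libraries, and 223.4 were expected in the YFP+ library 48 at the depth of the smallest library. The 15 segments with 0 counts in all libraries were Ighe, 5 D segments, 6 Ighv and 3 Igkv segments. The excess of the YFP+ library 48 was uneven by kind: it had 2.69 times the highest other library in the summed C segments, 3.05 times in V, 3.20 times in J and 0.486 times in D segments.

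Markers of other cell types followed these values only in part. Over all genes, for this and the lists below, 7.21% were higher at an unadjusted p under 0.05 from edgeR. A positive log2 fold change was found for 49.1%, and DESeq2 called 2.14% higher. Of 18 B cell marker genes, 17 were tested and 0 called by edgeR (8 higher at an unadjusted p under 0.05, 8 called higher by DESeq2), and all 17 had a positive log2 fold change, with a median of 2.97. Their summed level was 1697, 1065, 4140 and 313 CPM in YFP+ libraries, against 251, 200, 231 and 213 CPM in YFP- libraries, and Ms4a1, which encodes CD20, had 0 counts in all libraries. Without the YFP+ library 21, 7 were called higher, beside 2.68% of all genes. Cd79b and Ly6d, a partner chain of membrane immunoglobulin and a surface protein of the B lineage, had 428, 172, 618 and 22.5 CPM and 332, 133, 579 and 22.4 CPM in YFP+ libraries, against 33.1 to 44.8 CPM and 10.03 to 17.5 CPM in YFP- libraries. The YFP+ library 53, lowest in light chains among YFP+ libraries, was below the YFP- range for Cd79b. The list did not move as one in the YFP+ library 21: of 17 genes with counts, 9 were above and 7 below every YFP- library there, and Cd79b, Bank1 and Ly6d held 68.8% of its sum. The 12 plasma cell markers summed to 118, 525, 1222 and 640 CPM in YFP+ libraries, against 349 to 399 CPM in YFP- libraries (10 tested, 0 called by edgeR, 0 at an unadjusted p under 0.05 and 0 called by DESeq2). The list's median log2 fold change was 0.51, with 8 of 10 positive. Xbp1 and Tnfrsf13b, a transcription factor of secretory cells and a receptor of B cell survival factors, had log2 fold changes of 0.27 (SE 0.37) and 0.33 (SE 1.18), and Prdm1 and Slamf7, named after their values were seen, of -1.25 (SE 0.96) and -0.35 (SE 1.31). Prdm1 is also a gene of effector Treg cells. Xbp1 and Tnfrsf13b had 191 to 216 CPM and 85.3 to 119 CPM in YFP- libraries, and so held most of the list's sum there. Jchain, which links IgM and IgA chains and is a marker of antibody-secreting cells, had 0, 70.8, 418 and 109 CPM in YFP+ libraries, against 1.22, 10.7, 15.8 and 13.4 CPM in YFP- libraries (log2 fold change 3.86, SE 1.76, adjusted p = 0.411 from edgeR). For Jchain, as for Igha, the YFP+ libraries 48 and 53 were the 2 highest. What part RNA of these cell types had in the immunoglobulin values was not tested.

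The macrophage and monocyte markers summed to 67.1, 88.9, 540 and 59.6 CPM in YFP+ libraries, against 12.3 to 24.6 CPM in YFP- libraries (9 of 10 tested, 0 called by edgeR, 4 higher at an unadjusted p under 0.05, 2 called higher by DESeq2). The erythroid markers summed to 256, 251, 4056 and 241 CPM in YFP+ libraries, against 72.1 to 286 CPM in YFP- libraries (3 tested, 0 called by edgeR, 3 higher at an unadjusted p under 0.05, 0 called by DESeq2), with Alas2 at 0. The dendritic cell markers summed to 54.6 to 132 CPM in YFP+ libraries and 82.2 to 102 CPM in YFP- libraries (3 tested, 0 called by edgeR, 0 at an unadjusted p under 0.05, 0 by DESeq2). The YFP+ library 48 was the highest of all 8 for each of these sums and for the immunoglobulin sum, and their part in it was not tested. The T cell markers, which check the sorted cell type, summed to 12193, 10172, 8482 and 11332 CPM in YFP+ libraries, against 8771 to 9834 CPM in YFP- libraries (12 tested, 0 called by edgeR, 2 higher at an unadjusted p under 0.05, 0 by DESeq2). Here the YFP+ library 48 was the lowest.

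**Figure D5:**
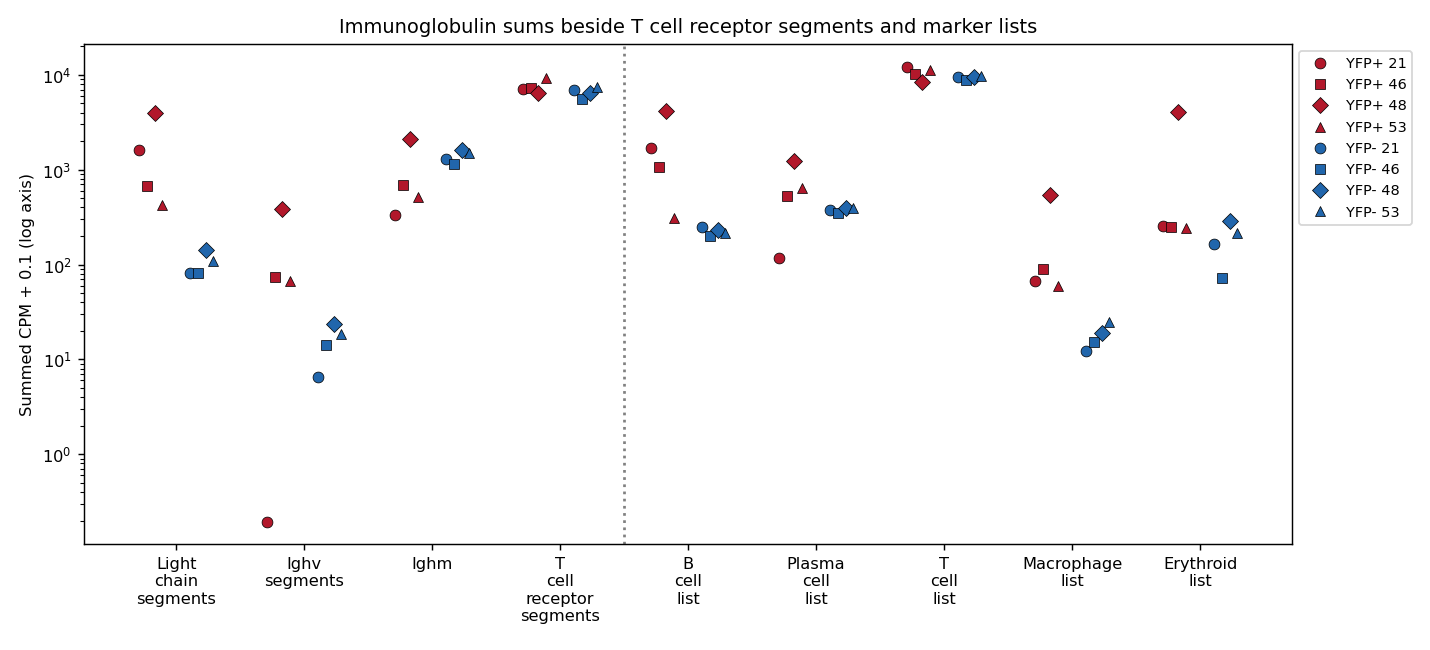
Summed levels (CPM + 0.1, log axis) of light chain segments, Ighv, Ighm, T cell receptor segments and the marker lists of B, plasma, T, macrophage and erythroid cells in each library. Points are libraries, with YFP+ left of YFP-. The YFP+ library 48 is highest in the immunoglobulin sums and in the B cell, plasma cell, macrophage and erythroid lists (4140, 1222, 540 and 4056 CPM), but not in the T cell list.

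Genes that act with immunoglobulins were read from 3 further lists. Over all genes, 7.21% were higher at an unadjusted p under 0.05 from edgeR, and 49.1% were positive. DESeq2 called 2.14% higher and 3.15% lower. Of 18 genes of the B cell receptor complex and its proximal signalling, 18 were tested and 0 called by edgeR (4 higher at an unadjusted p under 0.05, 4 called higher by DESeq2, 3 without the YFP+ library 21), with 16 positive and a median log2 fold change of 2.44. Cd79a, the other partner chain of membrane immunoglobulin, had a log2 fold change of 3.47 (SE 0.97, adjusted p = 0.198 from edgeR), and Ptpn6, a phosphatase also used in T cells, one of 0.02 (SE 0.48, adjusted p = 0.988). Of 18 genes of transcription and recombination of the loci, 14 were tested and 0 called by edgeR (3 higher and 2 lower at an unadjusted p under 0.05, 2 higher and 1 lower by DESeq2), with 9 positive and a median of 0.49. The recombinase genes Rag1 and Rag2, and Irf8, had 0 counts in all libraries. Without the YFP+ library 21, 5 genes of this list were higher and 1 lower, beside 2.68% and 3.97% of all genes. Of 18 genes of the surrogate light chain, the J chain, antibody assembly and Fc receptors, 14 were tested and 0 called by edgeR (5 higher at an unadjusted p under 0.05, 1 called higher by DESeq2, 5 without the YFP+ library 21), with 14 positive and a median of 2.26. Hspa5, the chaperone that binds unassembled heavy chains, had 1597, 1025, 1246 and 1110 CPM in YFP+ libraries, against 802, 727, 953 and 946 CPM in YFP- libraries (log2 fold change 0.54, SE 0.19, adjusted p = 0.312 from edgeR), with all YFP+ libraries above all YFP- libraries.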

How the data were processed

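The authors deposited raw counts for each gene in each library, together with a gene type. Libraries were made from total RNA with NEBNext Single Cell/Low Input RNA reagents, and the submitters' processing notes name Trim Galore, STAR and mm10. Not given in the sources used here: versions, the counting tool and its use of strand.

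The deposited counts were tested across all genes with edgeR 4.0.16 (R 4.3.3; TMM factors, filterByExpr with a minimum count of 10, quasi-likelihood F test, group as the only term, Benjamini-Hochberg adjustment, threshold 0.05). Standard errors are absolute log2 fold changes over the square root of F. CPM used TMM-scaled totals. Constant segments were also compared with two-sided exact permutation tests of log2(CPM + 1). Sums, shares and ratios were described without a test. The number of counts limits the precision of each share, and exact 95% intervals were used. The model code was tested on simulated data.

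Named segments were all constant segments, the 6 Ighv and 6 Igkv segments, the 3 Iglv segments, the 2 J segments of each locus and the D segment with the highest mean CPM, every segment called, and at most 5 called in each alternative quoted. Exceptions are marked. At most 4 genes of each list were to be named, those with the highest mean CPM. Members and lists were chosen with earlier results of these data known. Alternatives were RLE and upper-quartile factors, TMM without immunoglobulin rows, no filter and a stricter one (5 CPM in 4 libraries), DESeq2 1.42.0, robust dispersion, a replicate block and leaving out libraries. Leaving out the YFP+ libraries 21 and 48 together was chosen after seeing the data. Coordinates and sequences are from GENCODE M21 on GRCm38. Of the list genes, Hbb-bs was not matched, and Cd28 stands on 2 rows, 1 of them at 0.

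No library pair of a group had the same counts within sampling noise.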

Additional observations from a re-analysis of the deposited data

Results flagged for a closer look

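Among 120 groups of 4 libraries examined, 22 single values lay apart from the other 3 of their group, with a gap above Dixon's critical value. For independent, normally distributed values, chance alone would set apart about 1 value in 20 groups. That rate does not apply here. The values were CPM without logarithms, and a segment counted in 1 library of a group is set apart automatically. Many segments were named for their high mean CPM, and several sums share segments. The 22 values are thus a description and cannot be compared with chance. Of the 22 values, 14 were the highest of the YFP+ group and came from library 48. For single segments these were 2.36 CPM of Ighg1, 3.54 CPM of Ighg2b, 10.4 CPM of Ighj1, 61.8 CPM of Ighv1-54, 36.0 CPM of Ighv6-6, 1.63 CPM of Igkv3-9, 35.1 CPM of Igkv6-17 and 77.9 CPM of Igkv6-32. For sums they were 7308 CPM of all immunoglobulin segments, 4742 CPM of C segments, 3305 CPM of the heavy chain locus, 766 CPM of heavy chain constant segments other than Ighm, 540 CPM of the macrophage list and 4056 CPM of the erythroid list. The YFP+ library 53 stood apart for Igkv4-61 (70.2 CPM) and the YFP+ library 21 for Igkv4-90 (13.9 CPM).

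In YFP- libraries, number 53 stood apart as the highest for Ighg1 (7.36 CPM), Ighv1-53 (0.800 CPM), Ighv3-6 (1.42 CPM) and Igkv4-61 (5.52 CPM). Number 48 stood apart for Ighv2-3 and Igkv3-9, each at 0.0206 CPM, which is a single count where the 3 other YFP- libraries had 0.

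The immunoglobulin pseudogenes, 83 rows outside the report's comparisons, summed to 1.13, 8.34 and 2.54 CPM in the YFP+ libraries 46, 48 and 53, above the highest YFP- library at 0.970 CPM. The YFP+ library 21 had 0.710 CPM, within the YFP- range of 0.414 to 0.970 CPM. The sources used here do not say how reads shared by pseudogenes and functional segments were assigned.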

How the results depend on the processing

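With 4 libraries a group, of which the YFP+ libraries 21 and 48 each stood apart, few segments passed the test, and those below the floor of 3 counts cannot be ordered. The number of segments called was 1 with all libraries, and it was 0 with no filter (0.0404% of all genes called), 0 of 11 tested with a stricter filter (0.0892%), 0 with robust dispersion (0.71%), 61 with DESeq2, 0 to 22 when libraries were left out one at a time or by number, and 12 without the YFP+ libraries 21 and 48. For Igkc the log2 fold change was 3.99 with all libraries. It was 3.90 with no filter (adjusted p = 0.0778 from edgeR), 4.04 with a stricter filter (adjusted p = 0.134), 3.99 with robust dispersion (adjusted p = 0.0523) 3.17 to 4.35 when libraries were left out one at a time or by number, and 2.57 without the YFP+ libraries 21 and 48. Of 29 named segments tested, Igkc and 20 others changed sign or side of the threshold in some setting, and 5 changed sign. Ighg2b was at 0.036 with upper-quartile factors and at -4.08 to 1.89 when libraries were left out, Ighv9-3 was at -0.17 to 2.72 when libraries were left out, and Ighg2c was at -0.61 with a replicate block. Without the YFP+ libraries 21 and 48, Igkv8-30 was at -0.30 and Iglv2 at -0.093. The cause was not tested. Of 638 values computed under alternatives, 557 kept their direction and their side of the threshold or moved by less than the spread.

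The log2 difference of the immunoglobulin sum, 0.54, was 3.46 with V segments only and 3.10 without Ighm. The ratio of the YFP+ library 48 to the highest other library, 3.56, was 3.31 with plain totals, 3.33 with totals that leave out immunoglobulin rows, 2.69 for C segments, 3.05 for V segments, 3.02 without Ighm, and 3.56 to 3.91 when libraries were left out. In this library the lambda share, 14.5% by constant segments, was 36.5% by V segments, and the Ighm share of heavy chain constant counts, 73.5%, was 81.8% when only Ighm and Ighd were counted. The constant measure counts Iglc2 as the only lambda gene.

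The pairing of libraries by number was checked over all genes tested. Deviations from the group means correlated at 0.0646, 0.133, 0.169 and 0.126 between same-numbered libraries 21, 46, 48 and 53. The YFP+ libraries 46, 48 and 53 each correlated best with the YFP- library of their number, and the YFP+ library 21 with the YFP- library 46 (0.0864). No label says that a number marks an animal. Whether the numbers pair the samples was thus not settled, and the main fit did not use them. With a replicate block 0 segments and 0 of 15063 genes were called (edgeR, 39 segments at an unadjusted p under 0.05), and Igkc was at 3.61 (adjusted p = 0.347).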
